A study of Mus musculus with 12 samples.

Results

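T cells labelled as neuron-induced FoxA1Treg (nFoxA1Treg) were compared with conventional regulatory T cells (Treg), 3 arrays against 3 of the 12 arrays in the series. The arrays were chosen by their titles alone, and the values were normalized, filtered and tested within these 6 arrays. The nFoxA1Treg arrays carry the surface markers CD4hi and PD-L1hi in the labels. Their titles say neuron induced and their cell type field says natural FoxA1Treg. The Treg arrays carry the markers CD4+ and TGFbeta+. All mice had the strain background C57BL/10.RIII, and the labels used here give no age, treatment or time. Of the other 6 arrays, the 3 of CD4+ encephalitogenic T cells (EncT) are quoted beside single genes as a reference level, and the 3 of FoxA1Treg induced with IFN-beta enter only an alternative fit over 12 arrays. Levels are given in log2 units, so that 1 unit is a 2-fold difference, and levels of different genes are not compared with each other. The labels do not say whether replicates came from separate mice or cultures, and the p-values below cover no more than the spread among these arrays, which may be technical.

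FoxA1 is a forkhead transcription factor that opens chromatin in liver and in hormone-responsive epithelia, and it has been described as the factor that defines a regulatory T cell without Foxp3. Foxp3 is the forkhead factor that defines conventional regulatory T cells. PD-L1, encoded by Cd274, binds the inhibitory receptor PD-1 on other T cells, and TGF-beta, encoded by Tgfb1, induces both Foxp3 and the integrin chain CD103 in activated T cells. The series title places both cell types in experimental autoimmune encephalomyelitis, in which T cells enter the brain.

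The 6 arrays were alike in brightness, with deposited medians of 4.76 to 4.84 and 3.85% to 4.62% of values below 0. Array pairs correlated between 0.991 and 0.995 within the groups and between 0.990 and 0.995 across them. nFoxA1Treg replicate 3 stood apart from its own group. Its mean correlation was 0.992 with the other nFoxA1Treg arrays and 0.994 with the Treg arrays, whereas replicates 1 and 2 had 0.993 with their own group and 0.992 with Treg. On the first principal component, which held 35.4% of the variance, replicate 3 lay at 7.95, among the Treg arrays at 3.33 to 10.0, and replicates 1 and 2 lay at -14.1 and -14.2. The labels do not mark this array as different, so it was kept, and results that rest on it are given with and without it. All 12 measured T cell markers, among them Cd3d and Cd4, passed the filter on low values, and their summed level was 25167 to 25999 in nFoxA1Treg and 26053 to 26529 in Treg.

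Of 12512 genes tested, 1 differed between the groups at an adjusted p under 0.05, which is 0.00799% of them. The gene was Ttr, which encodes transthyretin, a carrier of thyroid hormone and of retinol-binding protein that the liver secretes into blood and the choroid plexus into cerebrospinal fluid. Its level was 2.32, 3.13 and 2.98 in the 3 nFoxA1Treg arrays and 7.86, 8.54 and 8.05 in the 3 Treg arrays. The groups were far apart, and nFoxA1Treg replicate 3 was as low as its group. Ttr was lower in nFoxA1Treg by a log2 difference of -5.34 (SE 0.22; limma, adjusted p = 1.97e-06). The nFoxA1Treg values lay below the filter level of 4.07, where dim probe sets scatter, and with 16 added to each value before the logarithm the difference was -3.70. In EncT the level was 2.15 to 2.90, as low as in nFoxA1Treg, and Treg was the group with the higher level. The other Ttr probe sets pointed the same way: the 1 that measured 6.26, 6.38 and 5.96 in Treg measured 3.12, 2.48 and 1.78 in nFoxA1Treg. They disagreed in size. Another kept probe set was 3.58, 3.84 and 3.65 in nFoxA1Treg and 4.46, 4.58 and 4.57 in Treg, a difference of -0.85 (SE 0.18) that did not pass. A probe set below the filter differed by -5.80 (SE 0.58).

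Cxcl1, which encodes a chemokine that draws neutrophils through CXCR2, differed on 1 of its 3 probe sets. On that probe set the level was 3.30, 2.64 and 2.92 in nFoxA1Treg and 7.02, 6.94 and 7.34 in Treg, with EncT at 2.83 to 3.31 as deposited. The values did not overlap, and all 3 nFoxA1Treg arrays were as low as EncT. With every kept probe set tested on its own, 3 of 22338 passed (0.0134%), 2 of Ttr and this 1 of Cxcl1. The Cxcl1 difference was -4.15 (SE 0.19; limma, adjusted p = 3.75e-06), and it kept an adjusted p of at most 0.000285 when any single array was left out. The brightest Cxcl1 probe set, which stands for the gene in the test of genes, differed by -0.09 (SE 0.13), and the other differed by -1.003 (SE 0.17) without passing. The probe sets of Cxcl1 therefore disagree in size, and the result holds for 1 of them.

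**Figure D1:**
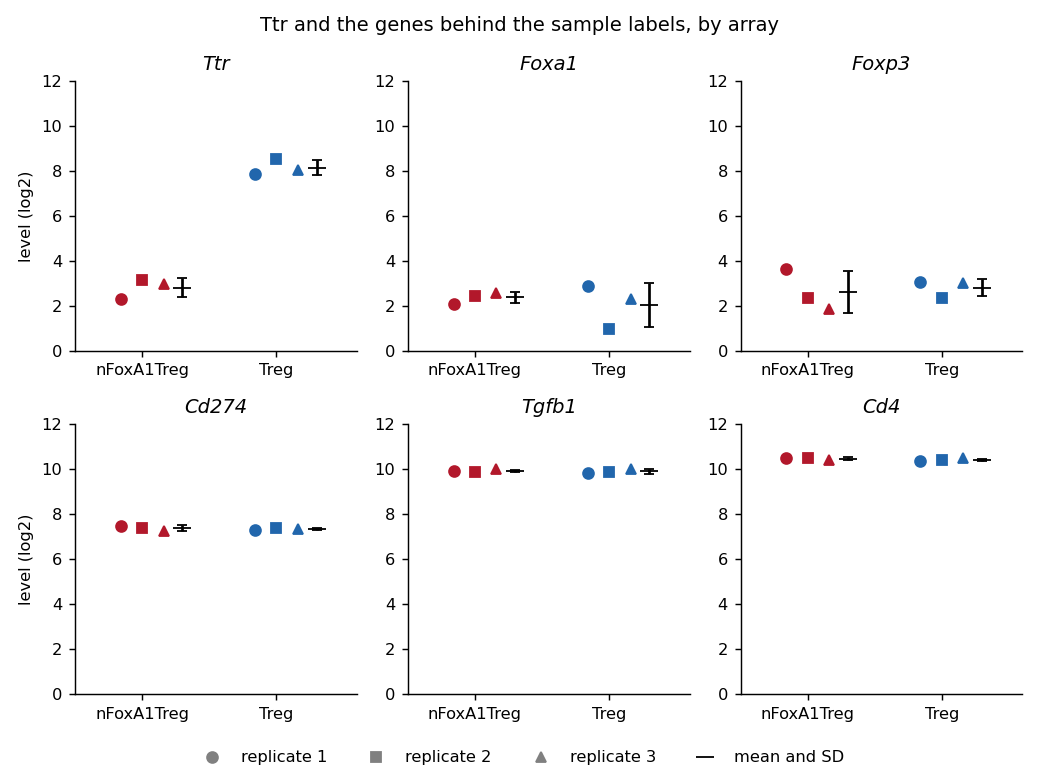
Level (log2 units) of Ttr and of the genes behind the sample labels in each array, with the mean and SD of the 3 arrays of a group beside the points; all panels share the axis. Ttr lies between 2.32 and 3.13 in nFoxA1Treg and between 7.86 and 8.54 in Treg, while the values of Foxa1, Foxp3, Cd274, Tgfb1 and Cd4 overlap between the groups.

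The higher Ttr of Treg was compared with other transcripts of choroid plexus. Of 20 listed choroid plexus and ependyma markers, 18 were measured and 8 passed the filter. Their summed level was 409 to 414 in nFoxA1Treg and 624 to 843 in Treg. Without Ttr, the sum of the other 17 was 400 to 407 in nFoxA1Treg and 392 to 470 in Treg, and the groups overlapped. Its brightest member was Foxj1, at 7.56, 7.49 and 7.32 in nFoxA1Treg and 7.38, 7.69 and 7.44 in Treg. The sum therefore says little about the dim members. Of the 8 tested, 7 were below 0 and 1, Folr1, above it. Folr1, a folate receptor of choroid plexus epithelium, was 4.69, 4.88 and 4.84 in nFoxA1Treg and 4.66, 5.07 and 4.28 in Treg. Clic6, a chloride channel protein of that epithelium, differed by -0.16 (SE 0.13; limma, adjusted p = 0.828), and Igfbp2, which binds insulin-like growth factors, by -0.26, both with overlapping groups.

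The transcripts that the groups are named or sorted for did not separate them. Cd274 was 7.49, 7.40 and 7.25 in nFoxA1Treg, labelled PD-L1hi, and 7.31, 7.38 and 7.34 in Treg. The values overlapped, and the difference of 0.04 had a 95% interval of -0.13 to 0.20 (limma, adjusted p = 0.948). Tgfb1 was 9.90, 9.89 and 9.99 in nFoxA1Treg and 9.82, 9.87 and 10.01 in Treg, labelled TGFbeta+, a difference of 0.03 (SE 0.06). Cd4, the coreceptor for MHC class II, was 10.51, 10.51 and 10.39 against 10.37, 10.40 and 10.48, a difference of 0.05 (SE 0.05). These are RNA levels, while the labels name surface protein.

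Both factors that give the cells their names were below the filter. Foxa1 was 2.08, 2.44 and 2.59 in nFoxA1Treg and 2.89, 0.96 and 2.28 in Treg. The Treg arrays spread more widely than the groups differed (0.33, SE 0.57; limma without the filter, adjusted p = 0.937, where 0.0055% of genes were called). In EncT, Foxa1 was lower on every array, at -8.33, -7.79 and -0.10, far below the filter level. Foxp3 was 3.63, 2.33 and 1.86 in nFoxA1Treg and 3.04, 2.36 and 3.03 in Treg, a difference of -0.20 (SE 0.51; adjusted p = 0.956). All 6 arrays were below the filter level of 4.07 on both genes. Each difference turned its sign when 1 array was left out, Foxa1 to -0.22 without Treg replicate 2 and Foxp3 to 0.17 without nFoxA1Treg replicate 3. Of the 20 other forkhead genes that passed the filter, none was called. Foxp4, a relative of Foxp3, was 5.98, 5.996 and 5.91 in nFoxA1Treg and 5.71, 5.59 and 5.64 in Treg, which did not pass (adjusted p = 0.762).

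Across the transcriptome the groups were close. The median absolute difference was 0.07, and 95% of genes differed by less than 0.30. For 12389 genes (99.02%) the 95% interval lay within 2-fold in either direction, and for 11220 (89.7%) it lay within 1.5-fold. 16 genes differed by 2-fold or more, 15 of them lower in nFoxA1Treg and 1, Ablim3, higher. With 16 added to each value before the logarithm 5 genes did, and Ablim3 differed by 0.59. Apart from Ttr these did not pass. At an unadjusted p under 0.05 there were 810 genes (6.47%), 407 higher (3.25%) and 403 lower (3.22%). The 3 values of each group did not overlap for 1421 genes (11.4%), 833 higher (6.66%) and 588 lower (4.70%).

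**Figure D2:**
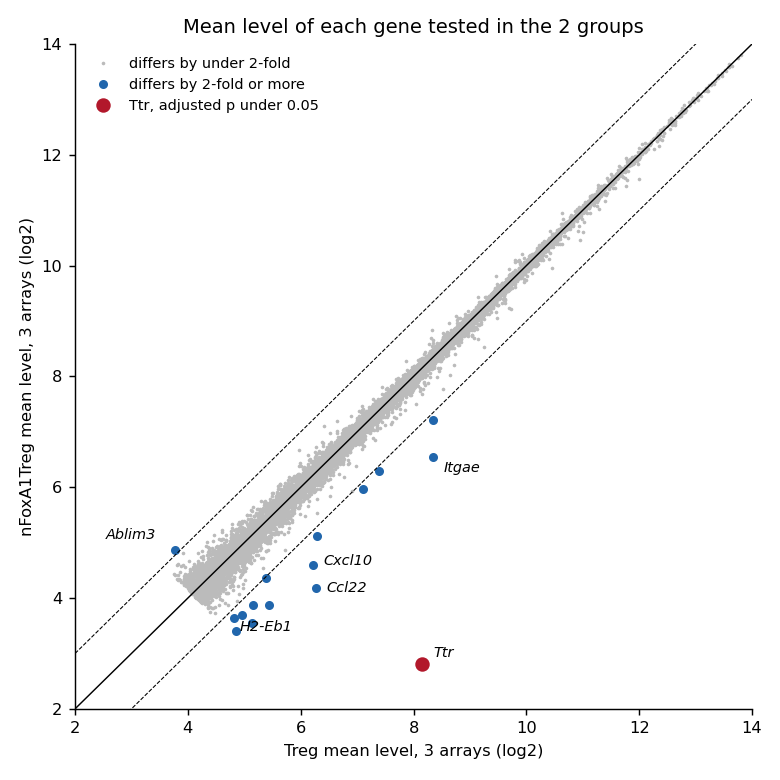
Mean level (log2 units) of each of the 12512 genes tested in the 3 Treg arrays (horizontal axis) and the 3 nFoxA1Treg arrays (vertical axis); the solid line marks equal levels and the dashed lines a 2-fold difference. The 16 genes that differ by 2-fold or more are drawn larger, and Ttr, at 8.15 and 2.81, lies farthest from the line.

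Apart from Ttr, the 12 genes with the smallest unadjusted p in each direction, among those whose groups did not overlap, missed the threshold with all arrays and are given as values. Without nFoxA1Treg replicate 3, 8 of the 12 higher genes passed, all but Ctla4, Filip1, Nek4 and Insr, and 10 of the other 11 lower genes passed, all but Wwox. On the higher side Slc44a4, a choline transporter-like protein, was 7.08, 7.13 and 7.11 in nFoxA1Treg and 6.28, 6.79 and 6.17 in Treg (0.69, SE 0.14; adjusted p = 0.678). Ctla4, an inhibitory receptor that regulatory T cells use to strip CD80 and CD86 from antigen-presenting cells, was 10.90, 10.75 and 10.87 against 10.62, 10.68 and 10.63. Its values did not overlap, and the difference was 0.19 (SE 0.05; adjusted p = 0.762). Ablim3, an actin-binding protein, differed by 1.10 (SE 0.25), Insr, the insulin receptor, by 0.49 (SE 0.13) and H2bc22, a histone H2B gene, by 0.22 (SE 0.04). Atp8b4, Filip1, Gstm5, Nrgn, Zfp91, Nek4 and Nop14 were the other 7, with differences of 0.23 to 0.61.

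On the lower side, Il7r, the receptor chain for IL-7 that marks resting and memory T cells, was 10.47, 10.53 and 10.81 in nFoxA1Treg and 11.09, 11.02 and 10.88 in Treg (-0.40, SE 0.08; limma, adjusted p = 0.678). Il18r1, a chain of the IL-18 receptor, differed by -0.38 (SE 0.07) and Neat1, the long noncoding RNA of paraspeckles, by -0.38 (SE 0.06). Cxcl10, an interferon-induced ligand of CXCR3, was 3.58, 5.07 and 5.12 against 6.14, 6.22 and 6.28, with EncT at 3.19 to 3.84. The groups did not overlap and the adjusted p was 0.678. Mmp3, a matrix protease, was 3.08, 3.98 and 4.01 against 4.83, 4.86 and 5.16, and Ctsl, the lysosomal protease cathepsin L, differed by -1.46 (SE 0.31). Cux1, Wwox, Kbtbd11, Sema4a and Dhx9 were the other 5, with differences of -0.55 to -0.20. Cxcl10 also passed without nFoxA1Treg replicate 1 (adjusted p = 0.016) and Slc44a4 without Treg replicate 2 (adjusted p = 0.0168). Without nFoxA1Treg replicate 3 the adjusted p was 0.00551 for Cxcl10, 0.0271 for Slc44a4, 0.000361 for Il7r and 0.00606 for Neat1.

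Markers of cells other than T cells were compared because either preparation could hold some. In each list only a part of the markers passed the filter: 16 of 39 for macrophages and microglia, 15 of 24 for dendritic cells and MHC class II, 25 of 36 for neurons, 14 of 27 for fibroblasts and endothelium and 10 of 23 for B cells. Apart from Ttr none of the members tested was called. The summed macrophage level was 4499, 4615 and 5538 in nFoxA1Treg and 5425, 5460 and 5268 in Treg, and the dendritic cell sum was 2473, 2527 and 3043 against 3158, 3054 and 3053. In both sums nFoxA1Treg replicates 1 and 2 were low and replicate 3 was near Treg. The pattern of the macrophage sum went with Ctss, a lysosomal protease of antigen-presenting cells: without it the sum was 3399, 3408 and 3414 against 3279, 3388 and 3518. The brightest member of that sum was Ctsb, at 11.23 to 11.34 on the 6 arrays, and the sum says little about dim members. Lgmn had the split of Ctss, at 4.99, 5.06 and 6.05 against 5.81, 5.91 and 5.80. Without replicate 3, 2 of the 16 members tested were called lower, beside 2.01% of all genes. Of the 16 macrophage members tested 8 were above 0 and 8 below, with a median of 0.01, and Trem2 and Ms4a6d were higher in nFoxA1Treg without overlap (0.33 and 0.27, not past the threshold). Members below the filter are not in this count. Among them Csf2rb was 0.79, 2.14 and 2.49 in nFoxA1Treg and 4.43, 3.86 and 4.15 in Treg. Lyz1, Clec7a, Clec4d and Clec4e were also lower without overlap, while others, such as Spi1, Mrc1 and Cybb, overlapped. Values this dim scatter. Of 14 fibroblast and endothelial members 8 were below 0 and 6 above. At an unadjusted p under 0.05, 3 of the 14 were lower (21.4%, beside 3.22% of all genes). Of 25 neuron markers 19 were below 0 and 6 above, and at that threshold 16% were lower and 4% higher (beside 3.22% and 3.25%). Timp1, an inhibitor of matrix proteases, was 4.51, 4.90 and 4.73 against 5.19, 5.51 and 5.27. Zic1, a zinc finger factor of cerebellar granule neurons, was 3.13, 4.91 and 5.01 against 5.21, 5.17 and 5.76. Nrgn, the neuron marker with the smallest unadjusted p, went the other way, at 7.53, 7.52 and 7.35 against 6.89, 7.11 and 7.25. In bulk samples fewer cells of a type and less RNA per cell cannot be told apart, and the part of such cells in the differences of Ttr, Cxcl1 and Cxcl10 was not tested.

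Leaving out nFoxA1Treg replicate 3 changed the count of genes more than any other choice tried. With replicates 1 and 2 against the 3 Treg arrays, 375 genes passed (3%), 124 higher (0.991%) and 251 lower (2.01%). This array was singled out after these values were seen, so the 375 genes describe how replicates 1 and 2 differ from the rest and have no independent support. All 375 kept their direction with replicate 3 in the fit, and 199 had an unadjusted p under 0.05 there. Replicate 3 lay nearer to the Treg mean than to the mean of its own group for 343 of them, and within the Treg range for 157. Replicate 3 did not lie nearer to Treg on every gene: the difference of Ttr was -5.43 without it and -5.34 with it, that of Neat1 -0.35 and -0.38, and that of Slc44a4 0.69 in both fits. Leaving out any other single array gave 1 or 2 genes.

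**Figure D3:**
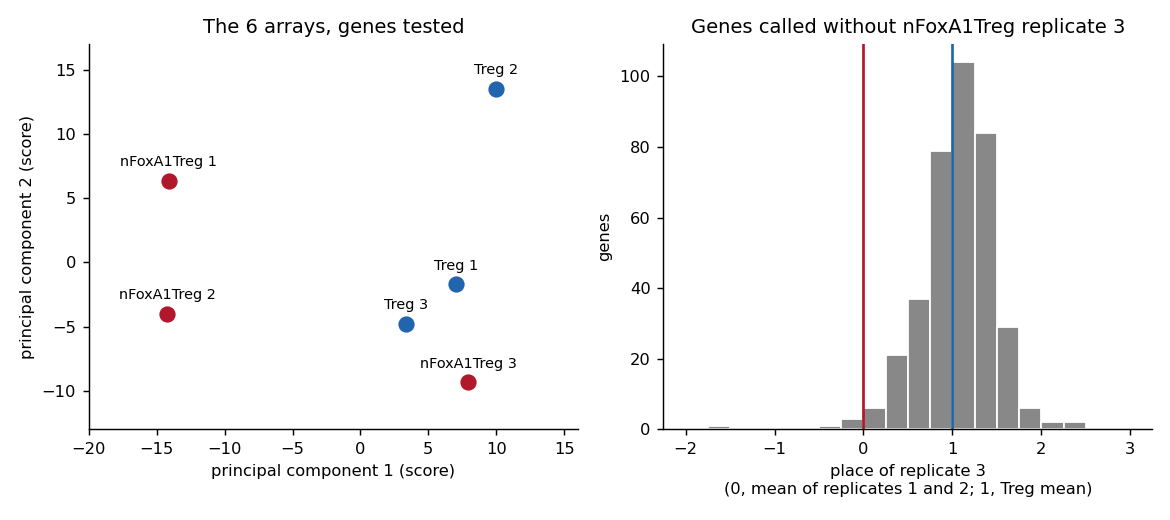
Left, the 6 arrays on the first 2 principal components (scores) of the genes tested, with nFoxA1Treg in red and Treg in blue. Right, for each of the 375 genes called without nFoxA1Treg replicate 3, the place of that array on a scale on which 0 is the mean of replicates 1 and 2 and 1 is the Treg mean; the median is 1.11.

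Genes of the TGF-beta response were among those that separated replicates 1 and 2 from the other 4 arrays. Of 34 listed genes of the pathway 27 were tested, and 0 were called with replicate 3 in the fit. Without it, 9 of the 27 were lower and 1 higher, beside 2.01% and 0.991% of all genes. Of the 9 lower genes, Itgae and Klf10 are induced by TGF-beta, Pmepa1, Skil, Ski, Smurf2 and Smad7 restrain SMAD signalling, Furin cleaves the precursor of the ligand and Tgfbr3 is a coreceptor. Itgae, which encodes the integrin chain CD103 that binds E-cadherin and is induced by TGF-beta, was 5.60, 5.55 and 8.46 in nFoxA1Treg and 8.41, 8.53 and 8.08 in Treg. Replicates 1 and 2 were low and replicate 3 was at the Treg level. The difference was -1.80 (SE 0.60; limma, adjusted p = 0.762) with all arrays and -2.77 without replicate 3 (adjusted p = 1e-07). EncT was itself split on Itgae, at 5.77, 6.11 and 9.06 in order of level, the highest above every Treg array.

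Pmepa1, an inhibitor that sequesters receptor-regulated SMAD proteins, was 7.25, 7.35 and 8.74 in nFoxA1Treg and 8.52, 8.66 and 8.37 in Treg. Ldlrad4, a related inhibitor that was not on the list, was 6.71, 6.36 and 8.58 against 8.37, 8.42 and 8.21. Both followed the pattern of Itgae, and each passed without replicate 3 (adjusted p = 7.93e-06 and 1.55e-06). EncT was split on both as well. In order of level it was 6.82, 6.89 and 8.96 for Pmepa1 and 6.24, 6.28 and 8.57 for Ldlrad4, the highest above every Treg array. Skil, a corepressor of SMAD complexes, was 8.93, 9.01 and 9.73 against 9.77, 9.77 and 9.53. Its relative Ski, the ubiquitin ligase Smurf2 and the inhibitory Smad7 differed without replicate 3 by -0.33, -0.50 and -0.57. Smad3, which carries the signal, was the 1 higher gene, at 8.83, 8.94 and 8.56 against 8.56, 8.40 and 8.58. The receptors Tgfbr1 and Tgfbr2 differed by -0.05 (SE 0.05) and -0.01 (SE 0.04) over all arrays, and the ligand Tgfb1 did not separate the groups either way. The median difference of the 27 genes was -0.01, beside 0.01 over all genes tested.

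**Figure D4:**
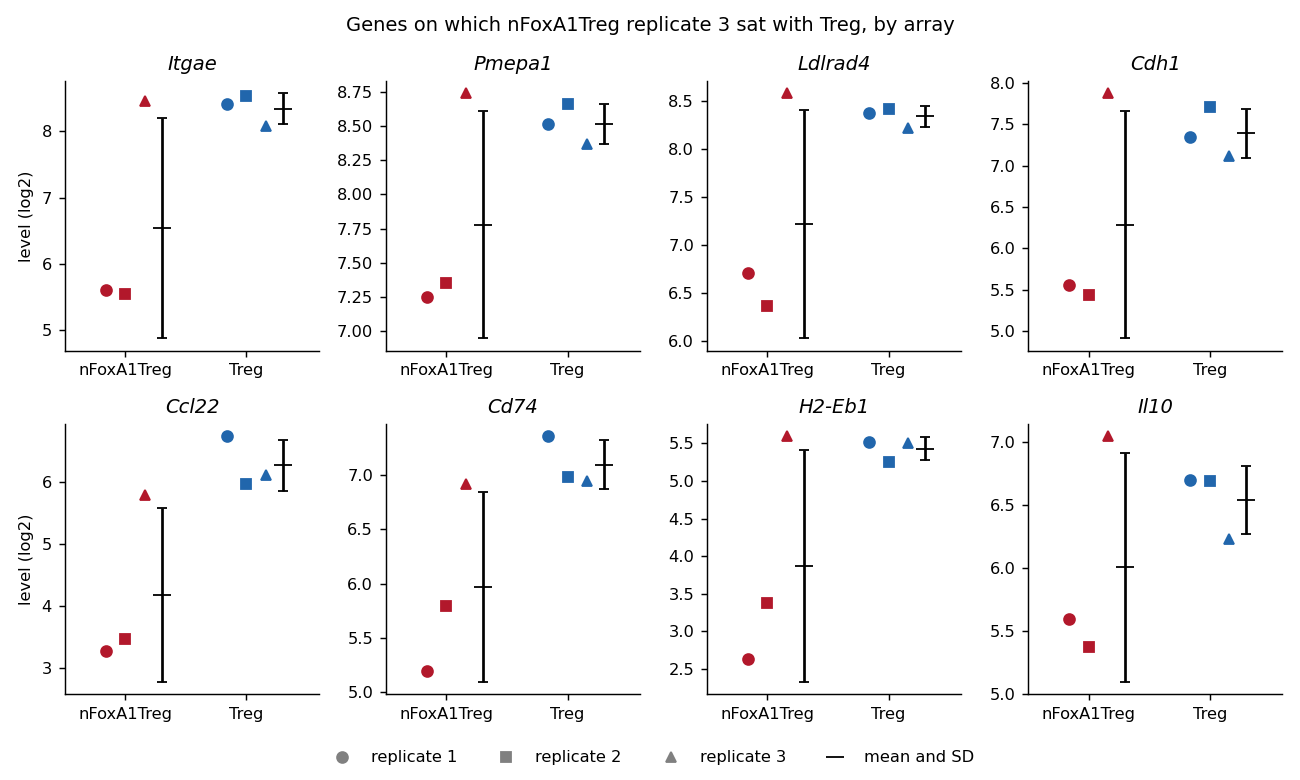
Level (log2 units, each panel on its own axis) of 8 genes called without nFoxA1Treg replicate 3, by array, with the mean and SD of the 3 arrays of a group beside the points. In each panel replicates 1 and 2 of nFoxA1Treg lie below every Treg array and replicate 3 lies above or among the Treg arrays, except for Ccl22 and Cd74, where it lies just below them.

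The Treg programme showed the same split of arrays. Of 28 tested genes of this list, which shares Itgae with the TGF-beta list, none was called with all arrays. Without replicate 3, 10 of the 28 were lower and 0 higher, beside 2.01% and 0.991% of all genes. Il10, the suppressive cytokine, was 5.60, 5.37 and 7.04 in nFoxA1Treg and 6.70, 6.69 and 6.23 in Treg. Replicate 3 was the highest of the 6 arrays, and the difference was -0.53 (SE 0.35; limma, adjusted p = 0.81) with it and -1.05 (adjusted p = 0.00217) without it. Icos, a costimulatory receptor, was 10.55, 10.65 and 10.96 against 10.98, 10.98 and 10.84. Izumo1r, the folate receptor of regulatory T cells, and Tnfrsf18, which encodes GITR, differed without replicate 3 by -0.48 and -0.24. Il2ra, the high-affinity chain of the IL-2 receptor, was 8.89, 8.75 and 8.55 against 8.59, 8.64 and 8.69, and did not pass either way. Ikzf2, which encodes Helios, was 7.76, 7.82 and 7.92 against 7.99, 8.16 and 7.94, without overlap and without passing either way (adjusted p = 0.762 and 0.106). The median of the list was -0.08 with replicate 3 and -0.15 without it.

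Of 20 tested inhibitory receptors and ligands none was called with all arrays, and 1, Cd96, was lower without replicate 3 (beside 2.01% of all genes). Pdcd1, the receptor for PD-L1, was 9.65, 9.61 and 9.86 in nFoxA1Treg and 9.75, 9.78 and 9.79 in Treg (-0.07, SE 0.06). Cd47, the signal against phagocytosis, differed by 0.04 (SE 0.04). Havcr2, which encodes TIM-3, was 7.32, 7.33 and 7.44 against 7.07, 7.13 and 7.28, without overlap (0.20, SE 0.08; limma, adjusted p = 0.762). Effector cytokines did not separate the groups. Ifng was 7.69, 7.72 and 8.002 against 7.77, 7.77 and 7.63, and Il17a was 6.41, 6.53 and 7.88 against 6.90, 7.30 and 6.71. For both the highest array was nFoxA1Treg replicate 3. Gzmb, which encodes the cytotoxic protease granzyme B, was 9.97, 9.90 and 9.54 against 9.42, 9.39 and 9.59, and passed without replicate 3 (adjusted p = 0.000993) but not with it (adjusted p = 0.762).

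MHC class II genes were low in replicates 1 and 2. Mouse T cells make little class II, and these transcripts mark antigen-presenting cells. Of 15 tested members of the dendritic cell and class II list, 5 had an unadjusted p under 0.05 and were lower (33.3%, beside 3.22% of all genes). None was called with all arrays, and 7 of the 15 were called lower without replicate 3, beside 2.01% of all genes. The 5 were 3 when nFoxA1Treg replicate 1 or 2 or Treg replicate 1 or 3 was left out. H2-Aa, the class II alpha chain, was 3.60, 3.17 and 4.14 in nFoxA1Treg and 5.10, 4.87 and 4.48 in Treg, with EncT at 5.43 to 5.95. Its groups did not overlap (-1.18, SE 0.26; limma, adjusted p = 0.717). Cd74, the invariant chain that guides class II to the endosome, was 5.20, 5.80 and 6.92 against 7.35, 6.99 and 6.95. H2-Eb1, a class II beta chain, was 2.64, 3.38 and 5.59 against 5.52, 5.26 and 5.51, so that replicate 3 lay above every Treg array. Ccl22, a chemokine of dendritic cells that attracts CCR4-bearing regulatory T cells, was 3.27, 3.48 and 5.78 against 6.73, 5.96 and 6.11. EncT was above every Treg array on these genes too, at 7.99 to 8.30 for Cd74, 5.90 to 6.40 for H2-Eb1 and 6.76 to 7.38 for Ccl22. Other list members did not separate the groups: Xcr1 and Zbtb46 overlapped, as did Itgax and Flt3, both below the filter. The 4 genes H2-Aa, Cd74, H2-Eb1 and Ccl22 are part of the summed dendritic cell level given above. Without them the sum was 2409, 2441 and 2801 in nFoxA1Treg and 2808, 2798 and 2793 in Treg, and its brightest member was Cst3, which many cell types express. With the 4 genes kept and Cst3 left out, the sum was 1431, 1422 and 1842 against 1890, 1861 and 1822. In both sums replicates 1 and 2 stayed below the Treg arrays. Whether dendritic cells carried the 4 genes was not tested.

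H2-Aa and H2-Eb1 are shown because both class II genes were lower in replicates 1 and 2. Class II promoters are known for a short conserved module that ends in a Y box, an inverted CCAAT element, and the letters TGATTGG, chosen after the values were seen, were searched on both strands of the reference promoters (RefSeq, GRCm38.p6; 250 bases before to 50 after the start). They occur in 7.82% of all 32851 promoters, or 9% of genes with a promoter in the table, and in 5 of the 14 such list genes (35.7%). The match is in capitals, it begins at position -50 from the start in H2-Aa (chr17:34287774-34288073, minus strand) and at -61 in H2-Eb1 (chr17:34305617-34305916, plus strand), and it describes the sequence only.
H2-Aa: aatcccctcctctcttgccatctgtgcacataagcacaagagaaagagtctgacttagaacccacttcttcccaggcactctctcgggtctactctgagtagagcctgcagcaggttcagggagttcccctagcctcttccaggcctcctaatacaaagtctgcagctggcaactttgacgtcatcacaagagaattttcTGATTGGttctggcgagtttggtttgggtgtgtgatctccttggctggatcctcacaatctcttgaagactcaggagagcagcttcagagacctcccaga
H2-Eb1: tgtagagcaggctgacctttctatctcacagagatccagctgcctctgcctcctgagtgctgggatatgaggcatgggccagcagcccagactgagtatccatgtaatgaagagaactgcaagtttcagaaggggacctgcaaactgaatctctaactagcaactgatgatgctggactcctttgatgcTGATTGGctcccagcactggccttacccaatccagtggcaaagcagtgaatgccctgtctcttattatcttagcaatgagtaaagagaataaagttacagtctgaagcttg

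The genes of the ATF4 programme, by which cells short of amino acids raise amino acid import, amino acid synthesis and the charging of tRNA, had slightly higher levels in nFoxA1Treg, none past the threshold. Of 45 listed genes 41 were tested. At an unadjusted p under 0.05, 13 were higher (31.7%, beside 3.25% of all genes) and 0 lower, and for 14 the groups did not overlap, all higher (34.1%, beside 6.66%). The median difference was 0.11, beside 0.01 over all genes, and 35 of the 41 were above 0. Replicate 3 did not stand apart here. With each gene taken relative to its Treg mean, the list median was 0.12, 0.10 and 0.08 in nFoxA1Treg and -0.05, -0.00 and 0.04 in Treg. Without replicate 3 the median was 0.11, 17 members had an unadjusted p under 0.05 and 2, Slc7a5 and Slc7a1, were called higher (beside 0.991% of all genes). The count of 13 was 8 without nFoxA1Treg replicate 1, 6 without nFoxA1Treg replicate 2 and 6 without Treg replicate 1, 8 without the intensity trend, 5 and 4 with 12 and 9 arrays in the fit, and 20 with the arrays centred on their medians.

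Among the transporters, Slc7a5, the large neutral amino acid carrier, was 8.71, 8.56 and 8.52 in nFoxA1Treg and 8.25, 8.37 and 8.41 in Treg (0.25, SE 0.07; limma, adjusted p = 0.762). Its partner chain Slc3a2 was 9.83, 9.78 and 9.87 against 9.64, 9.68 and 9.74. Neither pair of groups overlapped, and EncT was lower still for both, at 6.77 to 7.36 for Slc7a5. Slc1a4, a carrier of alanine, serine and cysteine, was 4.45, 4.41 and 4.58 against 3.98, 4.01 and 4.13. Among the enzymes, Asns, asparagine synthetase, was 9.60, 9.66 and 9.58 against 9.43, 9.46 and 9.53, and the tRNA synthetases Gars, Tars and Iars differed by 0.11 to 0.12 without overlap. Among the regulators, Atf4 itself differed by 0.11 (SE 0.06), Atf5 by 0.36 (SE 0.11) and Atf3 by 0.29 (SE 0.10), and Ddit3, which encodes CHOP, by -0.04 (SE 0.11).

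Asns and Slc1a4 are shown because both groups' values were apart and both promoters hold the letters TGATGNAA, the core of the element that ATF4 and C/EBP factors bind together. The letters, chosen after the values were seen and searched on both strands, occur in 3.97% of all promoters, or 4.51% of genes with a promoter in the table, and in 11 of the 34 such list genes (32.4%). The match is in capitals. In Asns (chr6:7693160-7693459, minus strand) it begins at position -23 from the start, and in Slc1a4 (chr11:20332664-20332963, minus strand) it lies on the opposite strand from position -4. The forkhead letters TGTTTAC or TATTTAC, searched in the same way, occur in 6.54% of all promoters, including that of Foxa1 and neither that of Foxp3 nor that of Cd274, and their absence says only that the letters are not in this window.
Asns: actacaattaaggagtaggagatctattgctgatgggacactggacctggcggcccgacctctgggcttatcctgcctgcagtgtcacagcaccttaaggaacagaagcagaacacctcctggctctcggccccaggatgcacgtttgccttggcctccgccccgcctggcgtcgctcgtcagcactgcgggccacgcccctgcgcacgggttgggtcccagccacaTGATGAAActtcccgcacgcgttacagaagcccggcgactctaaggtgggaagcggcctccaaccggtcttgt
Slc1a4: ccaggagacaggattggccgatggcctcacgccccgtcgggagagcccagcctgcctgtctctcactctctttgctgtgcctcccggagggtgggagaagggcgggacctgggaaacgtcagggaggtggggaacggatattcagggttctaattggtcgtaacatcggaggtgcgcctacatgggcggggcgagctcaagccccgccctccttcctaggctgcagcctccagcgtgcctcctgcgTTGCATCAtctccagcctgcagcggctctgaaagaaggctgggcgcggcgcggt

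Genes of cholesterol and fatty acid synthesis were higher in replicates 1 and 2. Of 32 tested, 6 had an unadjusted p under 0.05 and were higher (18.8%, beside 3.25% of all genes). None was called with all arrays, and 13 of the 32 were called higher without replicate 3, beside 0.991% of all genes. The 6 were 21 without that array, 1 to 3 without nFoxA1Treg replicate 1 or 2 or Treg replicate 1 or 2, and 5 without Treg replicate 3. Hmgcs1, which makes the first committed precursor of the mevalonate pathway, was 10.28, 10.26 and 9.68 in nFoxA1Treg and 9.77, 9.72 and 9.92 in Treg. Fdps, which makes farnesyl diphosphate, was 9.44, 9.29 and 8.55 against 8.66, 8.66 and 8.93. In both genes replicate 3 was the lowest of the 6 arrays. Fdft1, squalene synthase, was 9.12, 9.15 and 8.80 against 8.79, 8.72 and 8.80, and Cyp51, which removes a methyl group from lanosterol, was 9.17, 9.17 and 8.56 against 8.61, 8.52 and 8.75. Without replicate 3 the differences of Hmgcs1, Fdps, Fdft1 and Cyp51 were 0.47, 0.62, 0.37 and 0.55. The list median was 0.15 with replicate 3 and 0.24 without it. Abca1 and Abcg1, which export cholesterol, differed by -0.03 (SE 0.16) and -0.14 (SE 0.07).

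**Figure D5:**
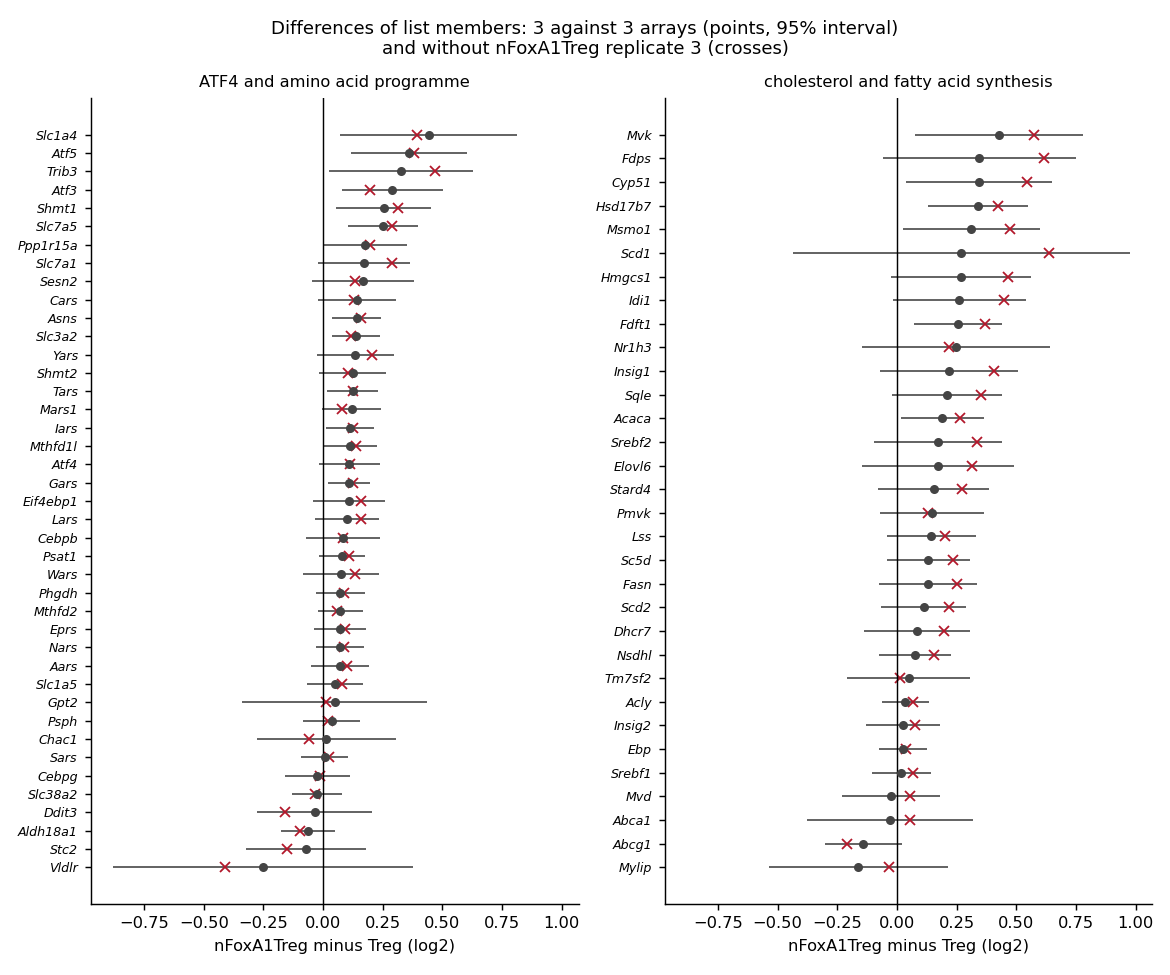
Difference nFoxA1Treg minus Treg (log2 units) of each tested member of the ATF4 and amino acid list (41 genes) and of the cholesterol and fatty acid list (32 genes); points and bars give the fit of 3 against 3 arrays with its 95% interval, and crosses the difference without nFoxA1Treg replicate 3. In the ATF4 list points and crosses lie close together, with medians of 0.11 in both fits, and in the cholesterol list the median moves from 0.15 to 0.24.

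Among the other lists no member was called with all arrays. At an unadjusted p under 0.05, some lists had shares above the 3.25% higher and 3.22% lower of all genes. Lower members made up 20% of 15 chemokine ligands, 17.2% of 29 genes of quiescence and lymphoid homing, 13.6% of 44 genes of chemokine receptors and migration and 10.7% of 28 costimulators. Higher members made up 12.5% of 40 immediate early genes and 11.8% of 34 genes of ribosome biogenesis. Called lower without replicate 3 were 4 chemokine ligands, 7 migration genes, 7 costimulators and 5 of 11 Th2 genes (beside 2.01% of all genes). In the same order, 1, 3, 1 and 0 were called higher (beside 0.991%). Of 46 tested genes of G1 and S phase 1 had an unadjusted p under 0.05, of 48 respiratory chain genes 1, of 24 ribosomal protein genes 1 and of 41 type I interferon response genes 2, and their medians lay between -0.00 and 0.02. Fos, the immediate early factor, was 7.02, 7.26 and 6.65 in nFoxA1Treg and 7.09, 6.75 and 6.84 in Treg, while EncT was at 2.70 to 4.30. Of 11 tested Th2 genes 2 were lower at an unadjusted p under 0.05 (18.2%), and the median was -0.18. Maf, a factor that drives IL-4 and IL-10, was 10.22, 10.21 and 10.25 against 10.45, 10.44 and 10.34, without overlap (-0.18, SE 0.04; limma, adjusted p = 0.762). Ecm1, a matrix protein secreted by Th2 cells, was 5.73, 5.80 and 7.05 against 6.78, 6.76 and 6.79, with replicate 3 above every Treg array.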

How the data were processed

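The 6 arrays measured total RNA on a mouse Affymetrix array. Probe set values were deposited by the authors on a log2 scale, summarised with PLIER per the submitters' processing notes; the sources used here give neither its version nor a between-array normalization, and base 2 was inferred from the range of values. Of 45037 probe sets, 34945 have 1 gene in the array annotation, 932 several and 9160 none. The values were quantile normalized over the 6 arrays. Probe sets in the upper 60% by mean were kept, which set the filter level of 4.07, and the brightest stood for each gene. Other kept probe sets exist for 5627 genes. Genes below the filter were read from a fit without it (18193 genes). Differences are nFoxA1Treg minus Treg from limma 3.58.1 in R 4.3.3 (lmFit, eBayes with trend, 4 residual degrees of freedom), two-sided, with Benjamini-Hochberg adjustment over all genes tested; every adjusted p in the text comes from it, and called means an adjusted p under 0.05. On simulated data for this comparison (12512 genes), 73.1% of changes of 0.5 log2, 97.0% of 1 and 100% of 2 were recovered. The simulation changed many genes at once, which eases the adjusted threshold. It drew independent noise for each array and held no array like nFoxA1Treg replicate 3. These shares therefore do not carry over to the real arrays, where 16 genes differed by 2-fold or more and 1 passed. The number of arrays limits the precision.

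Named genes were 15 fixed genes, the 12 leading in each direction, and up to 3 per list. Other list members, and genes leading without nFoxA1Treg replicate 3, were named after their values were seen. The members and the 40 lists were chosen with earlier results of these data known, and no list was tested. Same-numbered arrays deviated from their group means with correlations of -0.08, -0.16 and -0.04, so no shared deviation was seen. With 3 arrays per group, and replicate 3 apart from its own, this cannot tell whether the numbers pair samples. No 2 arrays held identical values. Ttr has no entry in the promoter table.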

Additional observations from a re-analysis of the deposited data

How the results depend on the processing

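Under 19 alternatives the count of genes passing was 1 with the values as deposited, with median centring, with 16 added before the logarithm, without the filter, with 12 or 9 arrays in the fit, without the intensity trend and with robust eBayes. It was 2 with the mean of kept probe sets and 3 with every kept probe set (Ttr and Cxcl1), 7 with array weights (Ttr, Ccl22, Il7r, Cux1, Slc6a14, Neat1 and Tent5a), and 0 in the upper 40%, where Ttr is filtered out and 635 genes had an unadjusted p under 0.05. Leaving out 1 array gave 1 to 375. With the replicate block the count was 1, and it changed no call. The Ttr difference ranged from -5.50 to -3.31, with an adjusted p of at most 0.00540. Of 93 genes, none that passed stopped passing except Ttr where filtered, and signs turned only for differences that had not passed: Tgfb1 was -0.0197 with the mean of kept probe sets and -0.00771 with array weights, Cd47 was -0.0071 with the mean of kept probe sets, and Il17a was 0.0163 with median centring. Leaving out 1 array gave ranges across 0 for Foxa1 (-0.22 to 0.75), Foxp3 (-0.72 to 0.17), Cd274 (-0.0187 to 0.10), Tgfb1 (-0.0156 to 0.084), Ifng (-0.0141 to 0.14), Il17a (-0.50 to 0.24) and Fos (-0.0606 to 0.24). Median centring moved the median of the ATF4 list to 0.15 and that of all genes to 0.04. The alternatives for lists, marker sums and single probe sets were chosen after seeing the data. Dim probe sets limit Foxa1, Foxp3 and the nFoxA1Treg level of Ttr and Cxcl1.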
